A study of Mus musculus with 19 samples.

Results

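The array carried 16194 probes whose only name is a stretch of the mouse genome, such as chr10:83185606-83225506_F, with no gene symbol. These region probes target candidate long noncoding RNAs, and the letter at the end of the name is taken here as the forward or reverse strand. They stand for 4610 strand-specific regions on 3543 spans of the mm9 (NCBI37) assembly, with a median length of 7304 bases, from 62 to 7128490 bases. A region had between 1 and 10 probes, with a median of 3. A region probe was kept when the scanner software called it well above background on every usable array of at least 1 of 6 organs. By this rule 10214 of 16194 region probes (63.1%) were kept, from 4043 regions. They are 10214 of the 55681 biological probes on the array.

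The study compared cultured fibroblasts from organs of adult mice aged 8 to 10 weeks. Pieces of 2 to 3 mm were digested for 40 min at 37 °C, with 0.05% trypsin or with 0.5 mg/mL collagenase. Cells were cultured 5 days with 10% serum, and the RNA input for Cy3 labelling was 0.1 µg. By the labels, kidney and skin had 2 samples each and every other organ (tail, lung, liver, heart, gonad) had 3, with no strain, sex or treatment named. They do not say whether samples of an organ came from separate animals, so p-values measure only the spread between these samples, which may be technical, and the cells are short-term primary cultures that may hold other cell types. The comparisons rest on 13 arrays: gonad 1 and 2, heart 2 and 3, liver 1 to 3, lung 1 and 3, skin 1 and 2, and tail 1 and 3.

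Long noncoding RNAs are transcripts without an evident protein product. Some are built into nuclear bodies, some act on the genes beside them, and others are by-products of transcription through enhancers, introns or the downstream ends of genes. Fibroblasts keep a memory of their position in the body in their transcription, best known for the Hox genes, whose clusters also make antisense and intergenic noncoding RNAs.

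Another 5 arrays (gonad 3, heart 1, kidney 1, kidney 2 and tail 2) were set aside because their negative controls were out of range. Their median raw spot signals were 213 to 1985, against 63 to 130.5 on the 13 arrays used. Lung 2 entered only through the deposited value table. All 10 fibroblast markers were detected on all 13 arrays, with summed levels of 10.66 to 11.22 on the log2 scale. Epithelial markers summed to 2.93 to 6.33 in liver and lung, 3.64 to 3.80 in skin, 2.37 to 3.12 in gonad and 0.41 or less in heart and tail. The keratinocyte keratins Krt14 and Krt5 had mean levels of 2.80 and 0.49 in skin and of -1.66 or less in every other organ. Mesothelial markers summed to 3.71 to 6.46 in gonad, liver and lung and to -0.50 or less elsewhere. Endothelial markers summed to 3.23 to 4.74 in gonad and liver and to 2.38 or less in the other organs. Leukocyte markers summed to 1.54 to 4.30 and cardiomyocyte markers to -1.25 to 5.11. Hepatocyte markers summed to -1.42 or less on every array. Germ-cell markers summed to 0.71 to 1.17 in tail, from Ddx4, and to -2.65 or less in the other 5 organs, gonad included. The part of these other cell types in the results on regions was not tested.

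Region probes were found far more often in skin and tail fibroblasts than in the 4 internal organs. Of the 10214 region probes kept, 8889 (87.0%) were detected on every tail array and 8696 (85.1%) on every skin array. The numbers were 5028 (49.2%) in gonad, 4921 (48.2%) in liver, 4824 (47.2%) in lung and 4607 (45.1%) in heart. In all, 9786 (95.8%) were detected in skin or tail and 428 in neither. By the number of organs that detected them, 1656 probes were found in 1 organ, 2812 in 2, 910 in 3, 675 in 4, 711 in 5 and 3450 in all 6. The pattern of 2505 probes (24.5%) was detection in skin and tail alone, against 12.2% of the detected probes that are not regions. The probes were chosen by these detection calls, so the counts are given without a test.

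Arrays differed within an organ as well. Of all region probes, 55.9% to 67.6% were detected on the skin arrays and 59.4% to 65.6% on the tail arrays. The ranges were 33.6% to 50.3% for liver, 30.7% to 56.7% for lung, 33.6% to 36.6% for heart and 34.3% to 35.6% for gonad. Lung 1, at 56.7%, thus lay above the lower skin array. Probes that are not regions moved the same way, with 73.9% to 80.6% detected on skin and tail arrays and 58.1% to 73.6% on the others. Median raw signals were 98 to 130.5 on the skin and tail arrays and 63 to 87 on the others. Skin and tail arrays were therefore also the brighter ones by median signal. Their 75th percentiles were not higher, at 8.63 to 9.01 on the log2 scale against 8.63 to 9.09 on the others. The part of brightness in the detection counts was not tested.

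**Figure D1:**
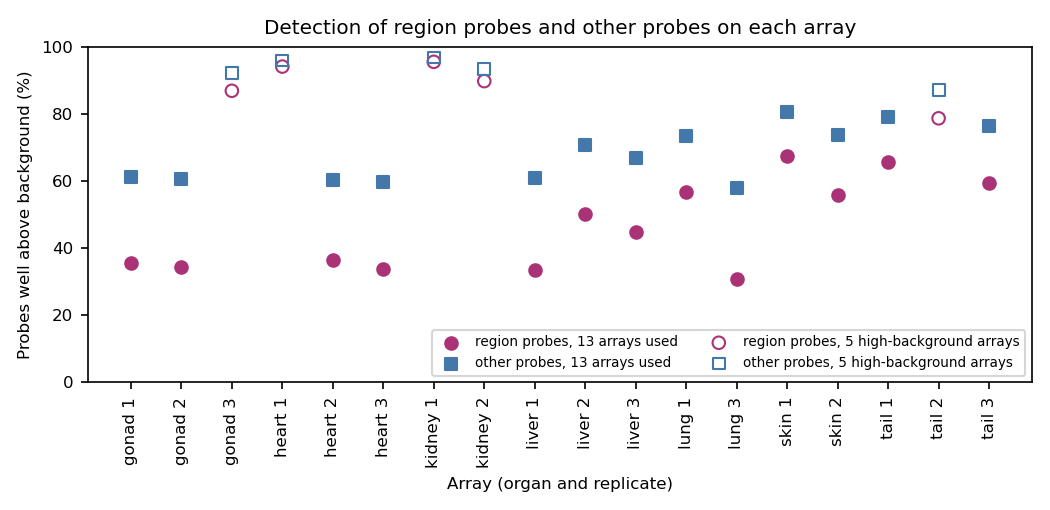
Percentage of region probes (circles) and of other probes (squares) called well above background on each array, by organ and replicate; filled symbols are the 13 arrays used and open symbols the 5 arrays with high background. Region probes lie below other probes on every array, and among the 13 the skin and tail arrays and lung 1 lie above 55% for region probes.

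Region probes were dim. Levels are given as the log2 of the processed signal less the array's own 75th percentile, so 0 is that percentile. The median level of the kept region probes was -3.83, against -1.11 for the other detected probes. The dimmest spot called detected had a processed signal of 12.4 and the brightest spot called undetected had 34.3, so the threshold is not a single signal value. A further 2920 region probes were detected on at least 1 of the 13 arrays without meeting the rule. On the arrays set aside, which the rule did not use, 96.4% to 99.0% of the kept probes were detected and 48.6% to 89.7% of the others.

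Position on the genome made little difference to the share of region probes kept. The share of region probes kept ran from 57.2% on chromosome 13 to 69.0% on chromosome 5. By strand it was 62.7% for the forward and 63.4% for the reverse. Within a region the probes often differed: 1633 regions (35.4%) had every probe kept, 2410 had some and 567 (12.3%) had none. Spans overlapped one another in 2101 cases (59.3%), so regions are not independent units. For the 1067 spans printed on both strands, both strands were detected in 46.6% to 50.1% of those detected at all in the internal organs, and in 81.2% and 81.5% in skin and tail.

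Differences among organs were tested for the 3447 region probes in the fit that were detected on all 13 arrays, since none of these was kept through 1 organ alone. Of these, 1265 (36.7%) differed among the 6 organs by limma's moderated F test at an adjusted p under 0.05. The background was 36.6% over all probes detected on all 13 arrays and 51.7% over every probe in the fit, and 36.6% of the other probes detected on all 13 arrays differed, so regions differed among organs about as often. The median range between the highest and the lowest organ was 1.01 on the log2 scale for region probes and 0.83 for other probes. Ranges over 4 were found for 69 region probes (2.00%), against 2.60% of other probes. The median SD within an organ was 0.27 for region probes and 0.17 for other probes. The share that differed ran from 27.7% on chromosome 19 to 48.1% on chromosome 9.

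Skin was the commonest place for the highest level and gonad for the lowest. Of the 1265 region probes that differed, 44.0% were highest in skin, against 27.9% of other probes that differed. Tail came next with 22.5%, then heart with 12.3%, gonad with 10.6%, lung with 9.33% and liver with 1.42%. The lowest level fell in gonad for 46.4% of them, against 24.2% of other probes, and in tail for 18.1%.

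Each organ was then set against the mean of the other 5, with a call at a limma adjusted p under 0.05 and a log2 difference of at least 1. In skin, 453 region probes were higher (13.1%, background 6.54) and 100 lower (2.90%, background 3.86). The epithelial signal from Krt14 and Krt5 given above moved with skin, and its part in these calls was not tested. In tail, 372 were higher (10.8%, background 6.72) and 147 lower (4.26%, background 5.49). In gonad, 89 were higher (2.58%, background 3.49) and 384 lower (11.1%, background 5.95). Heart had 72 higher (2.09%, background 3.1) and 55 lower (1.60%, background 3.02). Lung had 24 higher (0.696%, background 0.831) and 10 lower (0.290%, background 0.422). Liver had 3 higher (0.0870%, background 1.27) and 38 lower (1.1%, background 0.97). The shares varied by chromosome. On X, 19.5% of tested region probes were higher in tail and 8.59% lower in heart. On chromosome 19, 10.8% were lower in heart, and on chromosome 12, 9.41% were higher in gonad.

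The balance of higher and lower calls depended on the scaling between arrays. In gonad 18.8% of the called region probes were higher, and this became 39.7% with quantile normalization, 40.6% with normexp background correction and 39.4% in the deposited value table. In skin the 81.9% higher became 30.4%, 59.4% and 54.8% in the same order, and in tail the 71.7% became 35.3%, 44.9% and 49.0%. Heart moved from 56.7% to 70.5%, 70.9% and 70.0%, and liver from 7.32% to 40% with quantile normalization and to 0 of 8 calls with each of the other settings. Lung stayed between 65.9% and 72.7%. The direction of the bulk of skin and tail calls is therefore tied to the scaling, while the 35 calls named by organ further on kept their direction under every setting in which they were fitted, which for 3 of them leaves out the fit with all arrays.

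Single arrays carried part of the counts. Without gonad 1 there were 250 gonad calls in place of 473, and without gonad 2 there were 283. Without heart 3 the heart calls fell from 127 to 66, without skin 1 the skin calls from 553 to 176, and without tail 3 the tail calls from 519 to 170. The 34 lung calls became 0 without lung 3, 4 without lung 1, and 18 without either skin 1 or skin 2. The 41 liver calls became 18 without liver 1, 104 without liver 3, 27 without gonad 1 and 26 without skin 1. Within slides, all 453 and 100 skin calls and all 89 and 384 gonad calls had the same direction on every slide that held the organ, as did 371 of 372 and all 147 tail calls and all 72 and 55 heart calls. All 24 lung-high and 3 liver-high calls also did, against 8 of 10 lung-low and 35 of 38 liver-low calls. The calls were made from these same arrays, so a shared direction was largely set in advance. These within-slide counts are a description and not a check of the calls.

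Among region probes, those with a mean level below -2 held 333 of the 453 skin-high calls, 239 of the 372 tail-high calls and 269 of the 384 gonad-low calls. In these directions the share called was highest in the dimmest class for region probes and other probes alike. In that class, 21.3% of region probes and 18.3% of other probes were higher in skin. At 0 and above the shares were 2.25% and 2.39%. Lower calls in gonad ran from 17.2% and 16% in the dimmest class to 2.12% and 2.24% in the brightest. Higher calls in heart had no such slope, with 1.60%, 2.83% and 1.99% of region probes and 2.14%, 4.43% and 3.09% of other probes from dim to bright. At matched level, region probes were thus near other probes in skin and gonad and had smaller shares in heart, differences that were not tested.

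**Figure D2:**
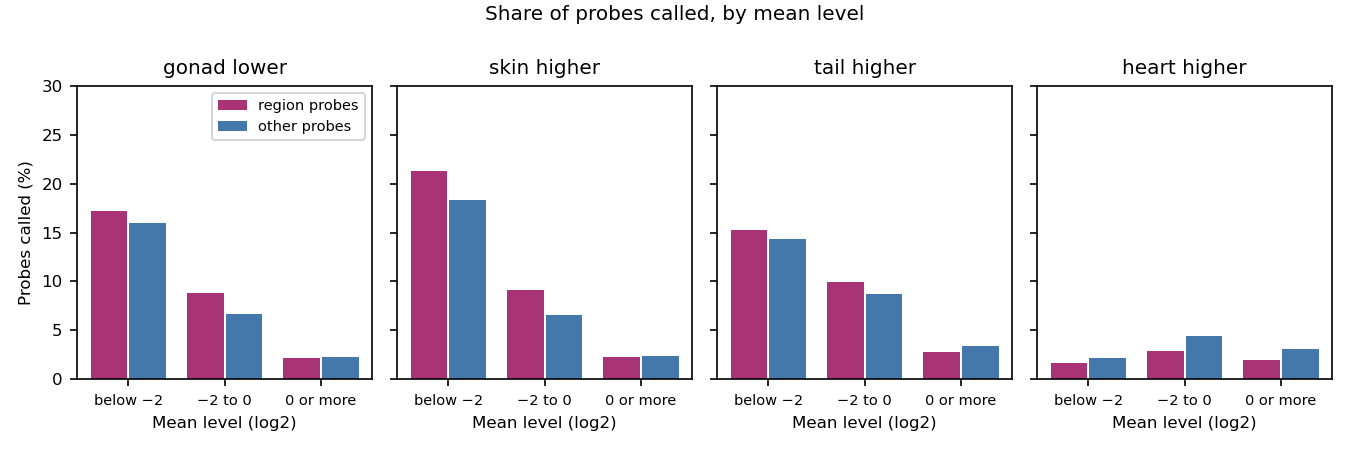
Percentage of region probes and of other probes detected on all 13 arrays that were called lower in gonad or higher in skin, tail or heart, by mean level in 3 classes (log2 relative to the 75th percentile). Gonad, skin and tail calls are commonest below -2 for both kinds of probe, and heart calls are not.

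Probes of 1 region give a check within the array, since they read the same putative transcript at different places. Across the 13 arrays, 3280 pairs of probes from 1 region had a median Pearson r of 0.71, close to the 0.70 of 4597 pairs from 1 gene, while 1654 pairs from opposite strands of a span had 0.18. Where both probes differed among organs, the medians were 0.94 for 734 region pairs and 0.92 for 1084 gene pairs. These correlations describe pairs over 13 shared arrays. Levels within a region still spread widely, with a median of 1.21 between the brightest and the dimmest probe.

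Calls that every tested probe of a region shared were a minority. Of 823 regions with at least 2 tested probes, 189 had a probe higher in skin and 22 of these (11.6%) had all probes called, against 30.8% of genes counted the same way. For lower in gonad the numbers were 143 and 17 (11.9%, genes 32.4), and for higher in tail 145 and 21 (14.5%, genes 37.4). Higher in gonad had 18 of 38 (47.4%, genes 56.3), lower in skin 16 of 42 (38.1%, genes 39.5) and lower in tail 23 of 64 (35.9%, genes 43.8). Heart had 8 of 31 higher (25.8%, genes 59.2).

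The largest gonad-high region was a stretch of chromosome 10. The forward region chr10:83185606-83225506 had levels of 3.31 and 2.57 in gonad, 0.57 and 0.53 in heart, -0.77, -0.47 and -0.51 in liver, 0.00 and 0.23 in lung, -1.47 and -1.83 in skin, and 0.86 and 0.75 in tail. Gonad stood above every other array, and skin was lowest. The gonad difference was 3.09 ± 0.20 on the log2 scale (SE; limma adjusted p = 0.000126), and the other 2 probes of the region gave 2.78 and 2.84. The overlapping region chr10:83181374-83249774 gave 2.68 to 2.86 over its 5 probes. The gene on chromosome 10 with the nearest profile was 1500009L16Rik, at r of 0.96 to 0.99 over the 13 arrays.

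Not every large gonad call was shared by the region. The reverse region chr5:137392195-137426421 was higher in gonad by 2.27 ± 0.35 (limma adjusted p = 0.00205) at 1 probe, while its other tested probe gave -0.79. The largest lower call, at chr15:79764481-79809909 on the reverse strand, was -3.67 ± 0.30 (limma adjusted p = 0.000186), and the region's other probe gave -0.33. It fell to -2.03 (adjusted p = 0.76) when the arrays set aside entered the fit.

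A locus with 14 spans, the most on the array together with 1 on chromosome 8, was rich in gonad-high probes. It runs over chr12:110653148-111080561, which general knowledge of mm9 places in the Dlk1-Dio3 imprinted domain. There the maternal chromosome makes long noncoding RNAs such as Meg3 and Mirg and a large group of microRNAs. In a window around the domain 50 forward-strand probes were kept and 27 were tested. Of the 27, 20 differed among organs, 21 were highest in gonad and 15 were called higher there, beside 36.6% and 3.49% of all probes detected on all 13 arrays that differed and were called higher in gonad. The median difference on the forward strand was 1.1 in gonad, 0.74 in lung, 0.43 in liver, -0.55 in skin, -0.70 in heart and -0.85 in tail. On the reverse strand 7 of 21 kept probes were tested and their median in gonad was -0.08.

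Within that domain the forward region chr12:110973190-110987668 had levels of 1.84 and 1.58 in gonad, 0.65 and 0.04 in heart, 1.51, 1.02 and 1.86 in liver, 1.52 and 1.64 in lung, 0.29 and 0.21 in skin, and 0.81 and -0.24 in tail. Gonad, liver and lung overlapped, and skin, heart and tail lay lower. Its probes had r of 0.97 to 0.99 with Mirg and 0.88 to 0.93 with Meg3. Mirg itself had levels of 4.38 and 4.06 in gonad and 4.10 and 4.32 in lung, and 2.82 and 2.89 in skin. Meg3 was higher in gonad by 1.11 ± 0.33 (limma adjusted p = 0.0290) and lower in skin by a log2 difference of -1.63 ± 0.33 (adjusted p = 0.00550). The reverse region chr12:111079867-111080561, near 1 edge of the domain, ran the other way, with r of -0.79 to -0.61 with Mirg and -0.74 to -0.53 with Meg3. At the other edge the forward region chr12:110653148-110653701 had r of -0.74 to -0.43 with Mirg and -0.69 to -0.39 with Meg3. At 1 of its probes, levels were -6.24 and -7.24 in gonad and -2.24 and -3.09 in skin. That probe was undetected in gonad and heart and detected on every array only in skin and tail. Its r thus rests partly on undetected values.

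**Figure D3:**
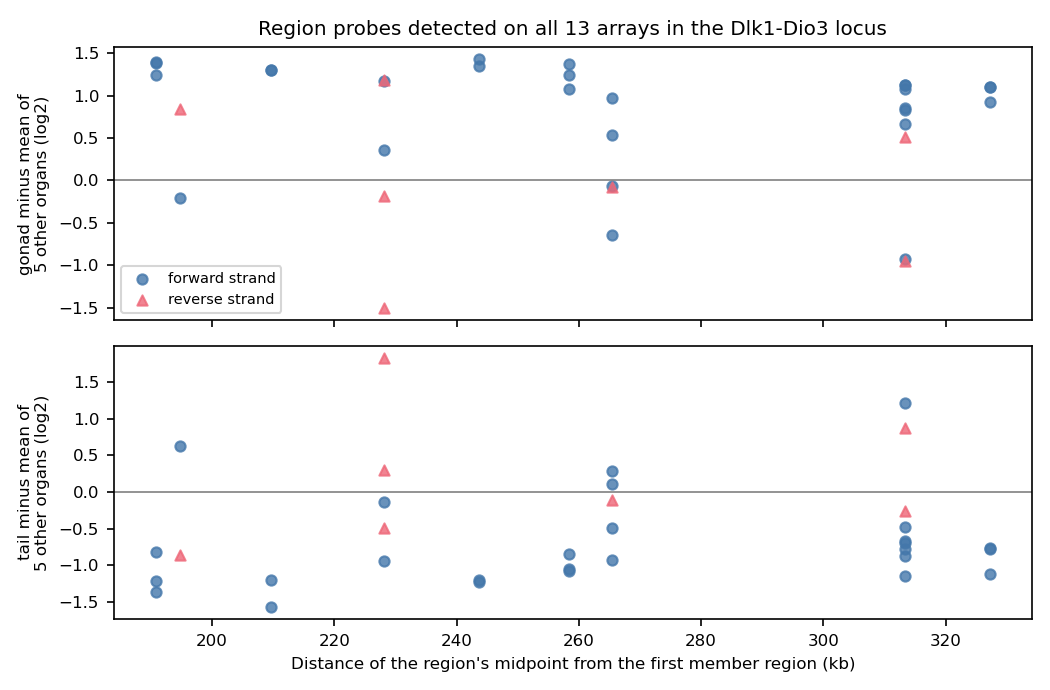
Log2 difference of gonad (upper panel) and tail (lower panel) from the mean of the other 5 organs for the tested region probes of the Dlk1-Dio3 window, by distance in kb of the region's midpoint from the first kept region. Each symbol is 1 probe; most forward-strand probes (circles) lie above 0 in gonad and below 0 in tail, and reverse-strand probes (triangles) lie on both sides.

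Heart-high probes came from 49 regions, and the 4 largest heart-high calls lay in 2 places known for interferon-inducible genes. On chromosome 1 a locus at chr1:175653557-175717250 had 11 tested probes, all 11 higher in heart and all 11 lower in gonad. Its reverse region chr1:175705225-175717250 had levels of 1.36 and 1.11 in heart and -0.04 and -0.92 in tail. In the other organs it had -4.16 and -4.29 in gonad, -4.40, -3.09 and -4.13 in liver, -3.71 on both arrays in lung, and -3.12 and -2.71 in skin. Heart was highest on both arrays, tail came next and the rest were near the lower end of the scale. The heart difference was 4.28 ± 0.33 (limma adjusted p = 9.84e-05), with 2.09 to 4.03 at the other probes.

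The neighbouring reverse region chr1:175654606-175672031 differed from heart to tail by less. Its levels were 1.55 and 1.98 in heart, 0.66 and 1.22 in tail, -4.15 and -4.52 in gonad, -1.72, -0.95 and -3.34 in liver, -3.22 and -2.93 in lung, and -1.77 and -2.10 in skin. The overlapping reverse region chr1:175660642-175671878 was higher in heart by 3.02 ± 0.35 (limma adjusted p = 0.000808). In the longer region the heart difference was 3.85 ± 0.48 (limma adjusted p = 0.00131) and the tail difference 2.85 ± 0.48, a tail call that was lost without tail 3 (2.57, adjusted p = 0.060). Ifi204, an interferon-inducible gene of this cluster, had r of 0.93 to 0.98 with the probes of the first region and 0.92 to 1.00 with those of the second. Its own levels were 4.91 and 4.64 in heart and 5.13 and 4.78 in tail, so heart and tail overlapped for the gene. They did not overlap at the 1 probe of each region whose levels are given here. The other 4 probes of the second region gave differences of 1.82 to 2.26 in heart and 1.97 to 2.08 in tail.

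The other heart-high place was chr7:111526943-111545093 on the reverse strand, read by 1 tested probe. Levels were 1.17 and 1.44 in heart, -0.54 and -0.82 in tail, -2.88 and -2.94 in gonad, -4.20, -2.54 and -2.54 in liver, -2.94 and -2.81 in lung, and -3.77 and -4.09 in skin. The order, heart first and tail next, was that of the probes with levels given for the chromosome 1 locus. The heart difference was 4.01 ± 0.38 (limma adjusted p = 0.000264). The Trim30 genes, interferon-inducible members of the tripartite motif family on chromosome 7, had r of 0.98 with it.

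The largest difference of any region was at chr7:91558475-91733625 on the forward strand, where 3 of 6 probes were tested. Levels at 1 probe were 5.04 and 4.89 in tail, 1.77 and 1.87 in skin, 1.04 and 1.05 in lung, 1.02 and 0.43 in gonad, -1.50, -1.21 and 0.11 in liver, and -3.43 and -3.56 in heart. Tail stood far above and heart far below all other arrays, and the 4 remaining organs lay between. At this probe the heart difference was -5.03 ± 0.35 (limma adjusted p = 6.04e-05), with -4.97 and -3.84 at the others. The largest tail difference, 5.17 ± 0.34 (adjusted p = 5.69e-05), was at another probe with tail levels of 4.83 and 4.86, and the other probes gave 4.88 and 5.12. On the arrays set aside, the level of the first probe was 4.90 on tail 2, -0.42 on gonad 3 and -2.04 on heart 1.

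A second heart-low region, chr1:183832694-183834125 on the reverse strand, was lower in heart by a log2 difference of -2.76 ± 0.23 (limma adjusted p = 0.000163), with -2.68 and -2.41 at its other probes. Levels were -2.12 and -2.64 in heart and between -0.53 and 1.34 on the other 11 arrays. The chromosome 1 gene with the nearest profile was Enah, an actin regulator, at r of 0.97 to 0.98.

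A chromosome X region set tail and skin furthest apart. The reverse region chrX:50400250-50410825 had levels of 3.48 and 2.26 in tail, 2.17 and 0.68 in gonad, 0.87 and 0.19 in lung, 0.37, -1.10 and 0.14 in liver, -1.16 and -2.33 in heart, and -4.12 and -3.90 in skin. Tail and skin did not overlap any other organ. Skin was lower by a log2 difference of -4.59 ± 0.53 (limma adjusted p = 0.000863) and tail higher by 3.67 ± 0.53 (adjusted p = 0.00175). The region's other 3 tested probes gave -3.22 to -0.44 in skin, with 2 called, and 2.65 to 3.12 in tail, all called. The gonad call of 1.94 was lost without gonad 1 (1.19, adjusted p = 0.25). The overlapping region chrX:50407969-50410370 gave -2.62 ± 0.39 in skin at 1 probe and 3.14 ± 0.31 in tail at another, and tail 2, not used in the fit, had a level of 3.28 in the longer region.

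Tail-low regions included a set on chromosome 16. The reverse region chr16:34524589-34573439 had levels of -1.97 and -3.53 in tail, -0.27 and -0.45 in skin, and 0.11 to 1.84 on the other 9 arrays. Tail was lowest and skin next lowest. The tail difference was -3.55 ± 0.37 (limma adjusted p = 0.000416), with -3.38 to -3.02 at the other probes. Its probes had r of 0.86 to 0.91 with Kalrn, a guanine nucleotide exchange factor on chromosome 16. The chromosome 16 gene with the nearest profile was Adcy9, an adenylyl cyclase, at r of 0.96 to 0.98. At the probe with the largest tail difference, Map4k4 on chromosome 1 had r of 0.97, as did Adcy9.

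The tail-low region of largest size, chr13:21856097-21859200 on the reverse strand, was a bright probe with a wide spread. Levels were 1.30 and 1.22 in tail, 4.20 and 4.61 in skin, 4.14 and 6.21 in gonad, 5.93 and 5.74 in heart, 9.20, 7.75 and 4.95 in liver, and 8.24 and 7.45 in lung. Liver arrays alone spanned more than 4 log2 units. The tail difference of -4.85 ± 0.89 (limma adjusted p = 0.00486) was lost without tail 3 (adjusted p = 0.060).

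**Figure D4:**
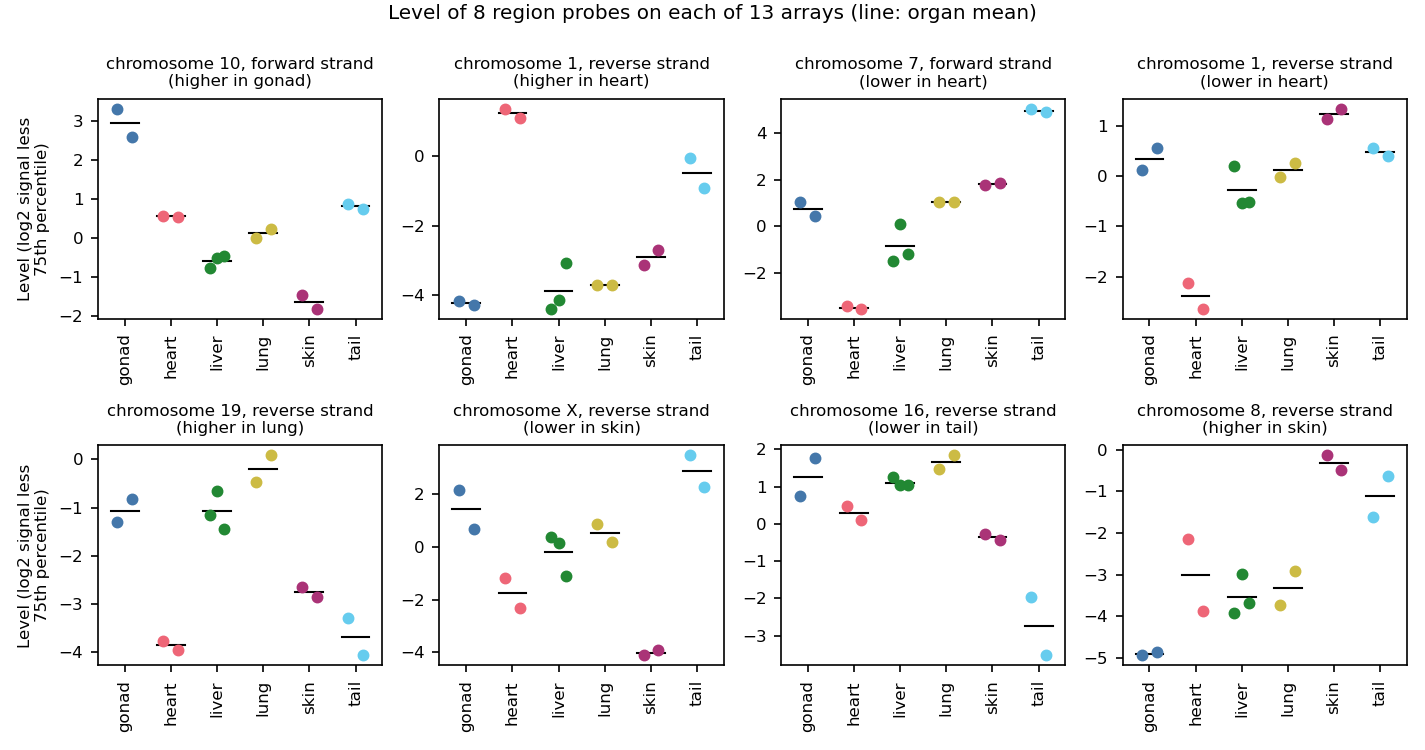
Levels (log2 signal less the array's 75th percentile) of 8 region probes on each of the 13 arrays, by organ, with 1 point per array and a line at the organ mean; vertical scales differ between panels. The organ named above each panel lies highest or lowest on both of its arrays; in the chromosome 7 and X panels tail, highest, was called too.

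Many neighbouring probes were called together at further loci, beside those on chromosomes 12 and 1 described above. At chrX:90997595-91009570, 10 of 13 tested probes were lower in heart. At chr17:26911032-27024356, 12 of 14 tested probes were lower in skin and 11 of 14 higher in tail. Its forward region chr17:26911397-26917047 had 10 probes, all called. Levels at 1 of them were -0.99 and -1.53 in skin, 1.65 and 1.5 in tail and between 0.20 and 0.95 on the other 9 arrays, which left both organs clear of the rest. The skin difference was -2.04 ± 0.20 (limma adjusted p = 0.000518), with -2.02 to -1.54 at the other probes.

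A further locus, chr2:127988295-128250301, had 15 of 16 tested probes lower in tail. The region chr2:128137419-128141735 on the reverse strand was lower in tail by a log2 difference of -1.53 ± 0.23 (limma adjusted p = 0.0022). Morrbid, a long noncoding RNA on chromosome 2 that acts on the nearby cell death gene Bcl2l11, had r of 0.60 to 0.87 with 3 regions of this locus. Of the 5 loci with the most spans, chr13:94180737-94203935 had 11 of 13 tested probes that differed, while chr8:122712014-123008463 had 4 of 18, chr13:28477490-28985604 had 3 of 7 and chr1:138442536-138632310 had 4 of 14.

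The largest skin-high calls rested on single dim probes. The reverse region chr8:40072950-40088400 had levels of -0.14 and -0.48 in skin and -1.61 and -0.63 in tail. It had -4.95 and -4.87 in gonad, -2.15 and -3.87 in heart, -3.92, -3.68 and -2.99 in liver, and -3.73 and -2.91 in lung. Skin was highest and tail next, and the difference in skin was 2.87 ± 0.44 (limma adjusted p = 0.00217). On the arrays set aside its level was -0.22 to 1.77. The next were chr2:168136389-168136560 at 2.67, chr6:131263850-131314850 at 2.63, whose other probe gave -0.44, and chr1:51753968-51803787 at 2.62. When the arrays set aside entered the fit, the chromosome 8, 2 and 1 calls had limma adjusted p of 0.75.

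Lung-high regions were few and included 1 beside Tbx5, a T-box transcription factor of heart, forelimb and lung mesenchyme. The reverse region chr5:120269342-120279542 was higher in lung by 2.63 ± 0.34 (limma adjusted p = 0.00795), a call that was lost without lung 1 (adjusted p = 0.063) or lung 3 (0.13). Another probe of the same region was detected in lung alone. Tbx5 had levels of 1.73 and 1.91 in lung, 0.02 and 0.52 in skin, and -2.05 and -2.48 in heart. It had -4.93, -0.46 and -1.68 in liver and -3.52 and -2.96 in tail, and was not detected in gonad. Its r was 0.62 to 0.93 with the kept probes of this region. With the 1 kept probe of the overlapping chr5:120253747-120281800 it was 0.96.

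The reverse region chr19:4991356-4993113 was higher in lung too. Levels were -0.47 and 0.08 in lung, -1.15, -1.44 and -0.65 in liver, -1.31 and -0.82 in gonad, -2.64 and -2.86 in skin, -3.77 and -3.95 in heart, and -3.30 and -4.07 in tail. Lung was highest, with the lowest lung array above the highest liver array by a small margin. The difference was 2.30 ± 0.27 (limma adjusted p = 0.00589), lost without lung 3 (2.02, adjusted p = 0.11), and the region's other probe gave 0.69 and was not called. The chromosome 19 gene with the nearest profile was Npas4, an activity-regulated transcription factor, at r of 0.83 to 0.99. A chromosome 18 region had 4 probes called higher in lung at 1.11 to 2.26, with the largest call lost without lung 1 (adjusted p = 0.069) or lung 3 (0.20). The forward region chr13:97700327-97700876 was higher in lung by 1.78 ± 0.31 (limma adjusted p = 0.027), a call lost without either lung array, gonad 1 or either skin array (adjusted p of 0.056 to 0.23). The liver-high calls numbered 3, at 1.23 for the chromosome 19 region, 1.17 for another chromosome 18 region and 1.00 for chr2:22782700-22801900. The first was lost without liver 1 (adjusted p = 0.065) and the others without most single arrays. The largest liver-low calls were -2.09 at the chromosome 7 forward region and -1.85 at the first chromosome 1 region, both described with tail and heart.

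The profiles of 3 single probes matched that of 1 gene on another chromosome. A nearest profile on another chromosome was common among the named regions. Examples are chr15:79764481-79809909 with Nlrp4c on chromosome 7 and chr2:168136389-168136560 with Zfp866 on chromosome 8 (r = 0.99 for both). Probes at chr9:118291593-118324230, chr11:96111499-96126224 (reverse) and chrX:90997595-91009570 each had r of 0.99 or more with Serpine2, a secreted serine protease inhibitor on chromosome 1. The chromosome 9 region had no other tested probe, the other tested probe of the chromosome 11 region had r of 0.56, and the highest among the 7 other tested probes of the chromosome X region was -0.29. In lung these 7 other probes of the chromosome X region had differences of 0.04 to 0.35, with 0 called. Lung was lower at the matched chromosome 11 probe, by a log2 difference of -2.78 ± 0.49 (limma adjusted p = 0.0290). It was lower too at the chromosome X probe matched to Serpine2 and at the chromosome 9 probe. The log2 differences were -3.37 ± 0.54 (limma adjusted p = 0.0211) and -3.12 ± 0.51 (adjusted p = 0.0224). Both calls were lost without lung 1 (adjusted p = 0.067 and 0.082), lung 3 (0.28 and 0.29) or skin 1 (0.051 and 0.054), with slide as a term (0.073 and 0.082) and with the replicate number as a term (0.077 for both), and the chromosome 9 call also without skin 2 (0.051). The match with Serpine2 was noticed after the values were seen.

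In the Hox clusters, noncoding probes lay in HoxA and HoxB, and the HoxC and HoxD windows held 0 region probes. In HoxB 16 of 17 probes were kept, from 5 regions, and in HoxA 8 of 20, from 3 regions. The forward region chr11:96175764-96176029 had levels of 1.59 and 2.13 in lung, -0.24 and -0.16 in gonad, -0.45, -0.55 and -0.98 in liver, -0.58 and -1.0 in skin, -0.03 and -0.94 in tail, and -5.60 and -5.04 in heart, where it was not detected. Lung was highest and heart lowest, with the 4 remaining organs overlapping. The homeobox genes Hoxb6 and Hoxb5 had r of 0.94 to 0.97 and 0.93 to 0.95 with it. The forward regions chr11:96111499-96126224 and chr11:96112907-96125798, further along the cluster, differed among organs (limma F test adjusted p = 0.000871 and 0.000662), with high levels in gonad, skin and tail, and had r of 0.83 to 0.97 with Gm53.

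The brightest regions did not differ among organs by the test. The reverse region chr19:5801802-5802597, in the neighbourhood of the nuclear noncoding RNAs Malat1 and Neat1, had levels of 8.78 to 9.56 over the 13 arrays (limma F test adjusted p = 0.70). The next 4 by mean level, on chromosomes 11, 14, 17 and 7, had adjusted p of 0.49 to 0.93. The brightest regions that did differ lay together on chromosome 17, where mm9 holds a copy of the ribosomal RNA precursor. The forward region chr17:39982023-39983277 had levels of 7.52 and 8.07 in gonad, 8.79 and 8.65 in heart, 8.36, 8.64 and 8.36 in liver, 8.00 on both arrays in lung, 8.56 and 8.68 in skin, and 7.71 and 7.90 in tail. Gonad, lung and tail lay below heart, liver and skin on every array (limma F test adjusted p = 0.015).

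Detection in a single organ was rare outside skin and tail. Of the 10214 kept, probes detected on every array of 1 organ and on no array of another numbered 76 in tail, 71 in skin, 7 in gonad, 5 in heart, 1 in liver and 1 in lung. No matching count was made for other probes. Of the other detected probes, 93.0% were detected in tail and 92.0% in skin, against 71.4% to 74.3% in the internal organs. The excess in skin and tail is thus not particular to region probes. The brightest, a probe of the forward region chr17:74580316-74599991 in skin, had levels of -0.99 and -1.81 there and was at least 9.96-fold higher than the mean of the other 5 organs. That bound sets undetected arrays at the lowest signal called detected, or at the probe's own signal where that was higher. The folds are those of 1 probe, and the regions named here on chromosomes 17 (at 74580316), 13, 12 (liver) and 5 (lung) each also had a probe detected on all 13 arrays. In skin the next were probes of chr10:18036490-18059965 at least 6.31-fold and chr17:14683411-14698476 at least 4.13-fold higher, the second with a profile nearest to the keratins Krt6a and Krt5 (r = 0.97 and 0.96 over 13 arrays). In heart chr13:28952570-28953234 was at least 4.15-fold and chr6:134875724-134931975 at least 3.56-fold higher. In tail chr5:110182844-110228345 was at least 4.36-fold higher, with levels of -4.09 and -0.97 on its 2 arrays. The bounds for gonad were 1.28 to 1.58, for liver 1.54, at chr12:16003706-16022581, and for lung 2.07, at chr5:120269342-120279542.

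Samples that did not enter the fit gave the named directions unevenly. Gonad 3, heart 1 and tail 2 were set against each other, and a probe was taken to hold when its level lay on the called side of their median. For regions with all probes called, 46 of 49 gonad-high probes (93.9%) held, against 38.3% of all tested region probes. All 25 of 25 heart-high probes held, against 75.6%, and 61 of 64 tail-low probes, against 77.7%. Tail-high probes held in 43 of 67 cases (64.2%) where the whole region was called and in 21 of 305 (6.89%) elsewhere, against 22.3% of all tested region probes and 58.0% of tail-high probes that are not regions. Most tail-high calls on region probes thus did not hold on tail 2, and 43 of the 64 that held lay in regions called at every probe.

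The other directions had their own background. Among all tested region probes, 61.7% lay on the low side in gonad 3, and 376 of 384 gonad-low probes held. Heart-low probes held in 13 of 19 cases (68.4%) in regions called at every probe and in 14 of 36 (38.9%) elsewhere, against 24.4% of all. The median raw signals of the 3 arrays were 223, 1100 and 213, all above those of the 13 arrays used, and the part of that background was not tested. In the deposited value table, which holds raw medians, lung 2 had the called direction for 24 of 24 lung-high and 10 of 10 lung-low region probes. Among called probes that are not regions, 161 of 173 lung-high and 85 of 90 lung-low probes had it too.

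**Figure D5:**
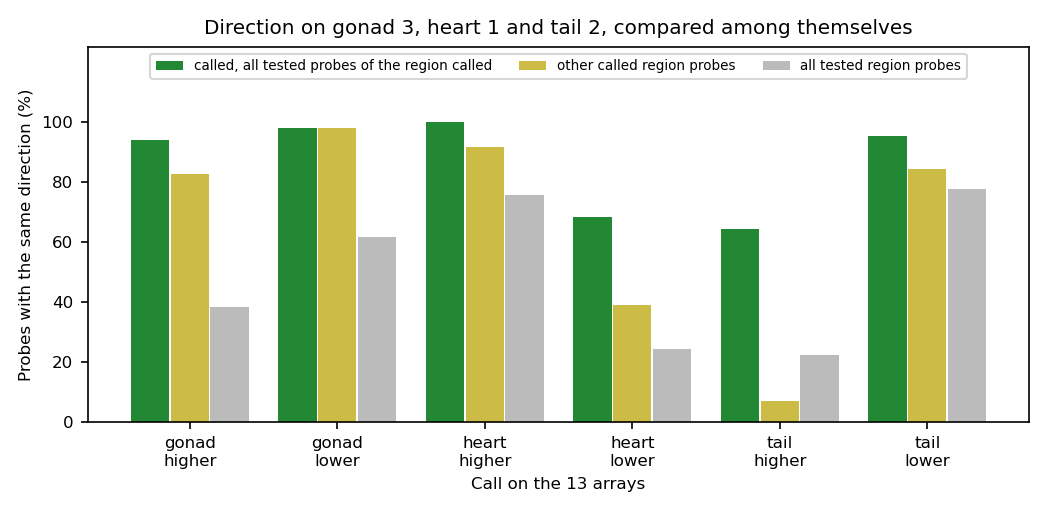
Percentage of called probes on the called side of the median of gonad 3, heart 1 and tail 2, which were not used for the calls: region probes in regions called at every tested probe, other called region probes, and all tested region probes as background. Among the other called region probes, tail-high calls have the lowest share (6.89%).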

How the data were processed

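RNA from 19 samples was hybridised to 1-colour Agilent arrays. Per the file headers, Agilent Feature Extraction 11.0.1.1 made the deposited intensity values (processed signal, and raw spot and background medians) and the deposited flags of 0 or 1, with probes named on mm9 (NCBI37). The authors' deposited value table holds the raw median intensity, equal to the scanner value on the 18 arrays with scanner output. No further processing step is named in the sources used here. From there, control spots were left out and the processed signal was put on a log2 scale, with the 75th percentile of each array subtracted. The 41298 probes detected in at least 1 organ were fitted with limma 3.58.1 in R 4.3.3, with Benjamini-Hochberg adjustment over all of them. Figures used matplotlib 3.10.9. The fit was tested on simulated data with 50 probes raised in gonad at each size. It called 20 of 50 at a log2 size of 1.5, 22 at 2, 43 at 3 and 45 at 4, with 9 false calls. Many changes of a log2 size of 2 or less were thus missed in the simulation. It raised 200 of 41298 probes, whereas 51.7% of probes in the fit differed among organs in the data. The simulated shares therefore need not hold for the real fit.

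The regions and lists were chosen with earlier results of these data known. Regions named in the text are, for each organ, the 4 largest higher and 2 largest lower calls, up to 3 regions detected in that organ alone, the 5 brightest, the 5 loci with the most spans (spans within 100 kb joined) and the regions of the Hox windows. Loci with the most calls, other windows, bright regions that differ, the Serpine2 matches, and the within-slide and set-aside-array values were chosen after values were seen. Genes beside regions come from likeness of profile on the same chromosome and from general knowledge of mm9, since the gene table supplied is of GRCm38. Genes taken by likeness were close matches from a search over 12864 genes. A high r was thus selected and does not place a gene beside a region. Alternatives covered scaling, background correction, filters, arrays, slide, replicate number and thresholds. Slide and organ could be separated, since each of the 3 slides held several organs. Replicate numbers were not taken as pairing. Same-numbered arrays had r of -0.50 to 0.51 (median -0.05) between their deviations from organ means. Other pairs had -0.51 to 0.51 (median 0.008). Where an organ has 2 arrays, their deviations mirror each other, so these r cannot decide whether the numbers mark pairs. The number of arrays limits precision.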

Additional observations from a re-analysis of the deposited data

How the results depend on the processing

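The 1265 region probes that differed among organs became 115 when the arrays with high background entered, and lay between 899 and 1269 when single arrays were left out. With those high-background arrays, calls fell to 16 in gonad, 58 in heart, 3 in liver, 4 in lung, 17 in skin and 90 in tail. Quantile normalization gave 272 in gonad and 25 in liver. Normexp gave 133 in gonad, 8 in liver, 244 in skin and 205 in tail. The deposited value table gave 160 in gonad, 8 in liver, 305 in skin and 239 in tail. The slide block gave 25 in liver and 17 in lung. The replicate block gave 81 in heart and 8 in lung, and 897 region probes by the F test. Lung gave 56 with the probes detected on all arrays and 58 with a variance trend. Without a minimum change there were 737 calls in gonad, 211 in heart, 97 in liver, 970 in skin and 942 in tail, and with a minimum of 2 there were 108, 35, 1, 112 and 48, and 8 in lung. The cause of the shifts was not tested.

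Leaving out single arrays gave 250 to 510 calls in gonad, 66 to 131 in heart, 18 to 104 in liver, 0 to 42 in lung, 176 to 589 in skin and 170 to 600 in tail. Requiring detection on all arrays of all 6 organs left 3450 of 10214 region probes. Of 35 named calls, 3 could not be fitted with all arrays. Of the other 32, 13 passed under every setting, and 0 of the 35 reversed where fitted.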
